A study of Schizosaccharomyces pombe with 30 samples.

Results

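Crosslinks of the termination factor Seb1 were examined in the transcripts that encode the proteins of the small ribosomal subunit of fission yeast (Schizosaccharomyces pombe). The genes were taken by name, as every protein-coding gene on chromosomes I to III whose RefSeq symbol starts with rps and a digit. This gave 55 rps genes of 5113 protein-coding genes, with 76 rpl genes (large subunit, same naming rule) and the other 4982 protein-coding genes set beside them. A site was assigned to a gene when it lay on the same strand between the annotated transcription start site and 250 nt after the annotated 3′ end.

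The crosslinks come from 1 PAR-CLIP library (Photoactivatable Ribonucleoside-Enhanced Crosslinking and Immunoprecipitation) of an h- strain whose seb1 locus carries a TAP tag and the KanMX marker (seb1::seb1-TAP::KanMX). The cells were grown at 30 °C in 100 μM 4-thiouracil, a further 900 μM was given for 4 h, and the culture was irradiated with 12 J/cm2 at 365 nm. Thiolated uridines that crosslink to Seb1 are read as T-to-C transitions, and each site has a count of reads with the transition and a count of all reads over it. Each site also has an occupancy, its transitions divided by the coverage of 1 RNA-Seq library from untagged h- cells labelled in the same way, with a maximum of 1. There is a single library in a single condition, so no difference below has a replicate check and no p-value is given. The 95% intervals cover counting error only and treat each site as independent. Neighbouring sites can share reads, so the intervals may be too narrow. PCR copies could not be told from separate molecules.

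Ribosomal proteins of the small (40S) subunit bind the 18S rRNA and form its head, which swivels during translocation, and its body and platform, which hold the decoding site and the exit of the mRNA channel. In fission yeast most of them are encoded by duplicated genes that are transcribed at a high rate, and their mRNAs are short and abundant. Seb1 belongs to the Nrd1 family, binds the C-terminal domain of RNA polymerase II through its CID and RNA through its RRM, and acts in 3′ end formation and termination. Proteins of this family recognise short RNA motifs with GUA, and the tetramer UGUA was searched here.

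Of the 55 genes, 23 encode head proteins (13 families) and 32 encode body or platform proteins (18 families). The list holds 31 families, of which 22 have 2 copies, 1 (rps4) has 3 copies and 8 have a single gene. The transcripts are short, with a median annotated length of 669 nt, and 31 genes have an intron. The 3′ UTR ranges between 29 and 530 nt with a median of 120 nt, and the 5′ UTR has a median of 17 nt.

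The sequences around a uridine with the most transitions in 6 genes are shown first. They were picked to show a UGUA at or close to a crosslink near the 3′ end, and over all rps sites a UGUA started at the crosslinked base in 20.2%. Each is 30 nt of sense RNA from the RefSeq assembly ASM294v3, 5′ to 3′. The crosslinked uridine (base 16) and every UGUA are in capitals.
rps29 (chrII:516866-516895, plus strand, 2 nt after the 3′ end): guugcaauuugagcaUGUAaaaaaagcgua
rps1501 (chrIII:798900-798929, plus strand, 14 nt before the 3′ end, in the 3′ UTR): cguaaacaugaauuaUGUAaagagaaauac
rps602 (chrI:3320089-3320118, plus strand, 44 nt after the 3′ end): uuuaguuuaguuaaaUGUAcguauauguug
rps1802 (chrIII:1032688-1032717, minus strand, 174 nt after the 3′ end): gucuaaauucuacgaUUGUAuuguguggaa
rps2602 (chrI:2792794-2792823, minus strand, 31 nt after the 3′ end): gucguauagUGUAggUgugagaucaaauug
rps1002 (chrII:1448573-1448602, plus strand, 44 nt after the 3′ end): aaccguagaUGUAaaUcagcuaugcagauu
In rps29, rps1501 and rps602 the first U of UGUA is the crosslinked base itself. In rps1802 the motif starts 1 nt after the crosslink, and in rps2602 and rps1002 it starts 6 nt before it. The printed uridines of rps29 and rps1802 are each tied with another. In rps29 the uridine 19 nt after the 3′ end also had 19 transitions, and in rps1802 that at 69 nt also had 17.

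Not every site with the most transitions in its gene holds the motif, and 3 further sequences are shown for that reason. The rps2501 site among them had only 5 transitions in 117 reads. They are the uridines with the most transitions in rps2202 and rps2501, both within the coding sequence, and the most converted uridine of all rps genes, downstream of rps1901.
rps2202 (chrI:1511837-1511866, minus strand, 259 nt before the 3′ end): cgguaucaugucccaUaaugaggcucgugc
rps2501 (chrII:1274457-1274486, plus strand, 247 nt before the 3′ end): gcucccuugcucguaUcgccauucgugauu
rps1901 (chrII:3819108-3819137, plus strand, 87 nt after the 3′ end): auaguaauaggcacgUcgacgaucauggua

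All 55 rps genes had at least 1 Seb1 crosslink site in their window (100%, Wilson interval 93.5 to 100%), against 74 of 76 rpl genes and 3314 of the other 4982 genes (66.5%, 65.2 to 67.8%). Over all 5113 protein-coding genes the share was 67.3%. The 2 rpl genes with no site were rpl2501 and rpl802. The rps windows held 362 sites, with 2440 transitions in 35100 covering reads when summed over sites. This is 6.81 sites per kb (exact Poisson interval 6.13 to 7.55) in rps genes, against 7.84 per kb (7.23 to 8.50) in rpl genes and 0.881 per kb (0.864 to 0.898) in the other genes. The sites of rps genes were also read more deeply. The median rps site had 4.5 transitions and 55 reads, against 2 transitions and 12 reads in the other genes, and 10.8% of rps sites but 63.9% of the others stood at the list's minimum of 2 transitions.

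The 40S genes have high RNA levels, so the comparison was repeated within classes of RNA-Seq coverage, taken for each gene as the median coverage implied by the occupancies of its exonic sites. In the class over 1000, the 30 rps genes had 6.37 sites per kb, against 9.49 in 40 rpl genes and 3.61 in 100 other genes. In the class of 100 to 1000, the 13 rps genes had 9.71 sites per kb, against 7.78 in 20 rpl genes and 1.61 in 1011 other genes. In the class under 100, the 5 rps genes had 4.32 per kb, against 2.52 in 3 rpl genes and 1.02 in 1832 other genes. The density of rps genes was above that of the other genes in each class. Gene length was not matched, with a median of 669 nt in rps genes and 1805 nt in the other genes. Counted per gene the groups were closer in the class over 1000, with 188 sites in 30 rps genes and 608 in 100 other genes. The coverage of the groups is not fully matched in this way, because the class depends on where the exonic sites of a gene lie and those of rps genes lie mostly in the 3′ UTR, where coverage was lower. The gene rps1101, for instance, was placed at 78 by its median although its coding site had a coverage of 8087. The classes can be formed only for genes with an exonic site below the maximum, and 7 rps genes, 13 rpl genes and 2039 other genes have no value. The coverage is that of a bulk culture, in which fewer cells with a transcript and less RNA per cell cannot be told apart.

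**Figure D1:**
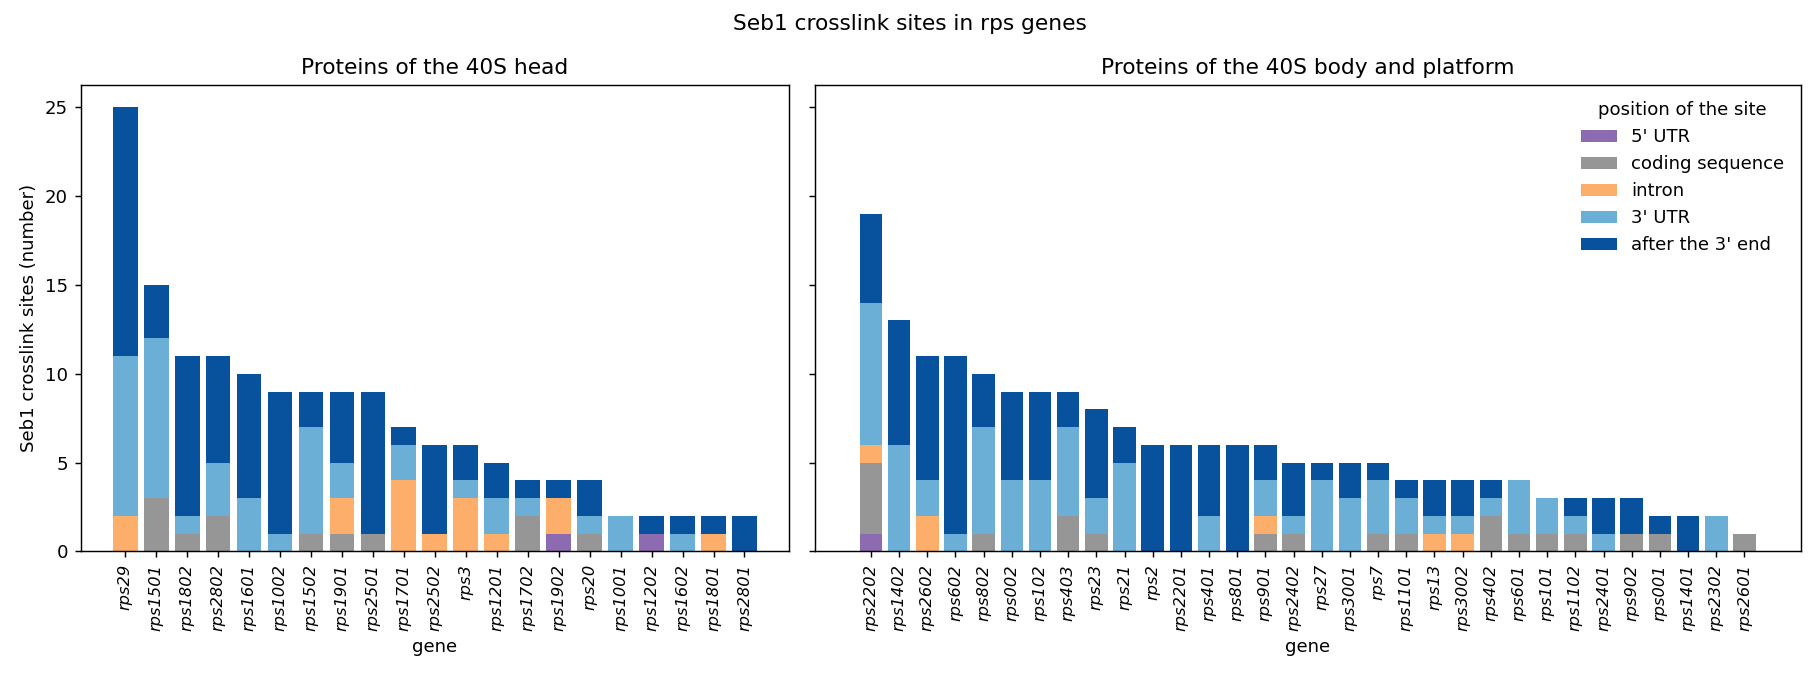
Number of Seb1 crosslink sites (y axis) in 53 of the rps genes (x axis), for head proteins on the left and body or platform proteins on the right, with bars divided by the position of the site. The counts range between 1 (rps2601) and 25 (rps29), and the blue shades, 3′ UTR and the 250 nt after the 3′ end, make up 83.4% of all 362 sites of the 55 genes.

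The number of sites varied widely among the rps genes, with a median of 6, a lowest value of 1 in rps2601 and a highest of 25 in rps29. The 18 genes with 9 or more sites held 210 of the 362 sites, and 10 genes had at most 2. Head genes had a median of 6 sites (2 to 25) and body or platform genes a median of 5 (1 to 19). The ranges overlap. Summed occupancies had a median of 0.424 in head genes (0.000941 to 1.56) and 0.119 in body or platform genes (0.00103 to 2.65), and these ranges overlap too. The 8 single-copy genes had a median of 5.5 sites (4 to 25) and the duplicated genes a median of 6.

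Among the head genes, rps29, which encodes the zinc-binding protein uS14, had 25 sites with 243 transitions in 6010 reads (35.6 sites per kb). Of these 14 lay after the 3′ end, between 2 and 235 nt from it, 9 in the 3′ UTR and 2 in introns, and none in the coding sequence. The 14 downstream sites had 8 to 19 transitions each and occupancies between 0.0497 and 0.161. The 9 sites in the 3′ UTR had occupancies between 0.000880 and 0.0276, so the normalised signal was lower at each of them than at any of the downstream sites.

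The next head gene was rps1501, for uS19, a protein next to the decoding site, with 15 sites and 191 transitions in 4722 reads. It differed from rps29 in where the sites lay, with 9 in the 3′ UTR, 3 in the coding sequence and 3 after the 3′ end. The 3 downstream sites, at 20, 21 and 37 nt, had occupancies of 0.175, 0.214 and 0.157.

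The head genes rps1802 and rps2802 had 11 sites each. In rps1802 (uS13, which takes part in bridges to the large subunit) 9 of them lay between 8 and 174 nt after the 3′ end, with 3 to 17 transitions. In rps2802 (eS28, near the mRNA exit) 6 lay between 54 and 167 nt after it. The first downstream site was thus closer to the 3′ end in rps1802 than in rps2802.

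The gene of uS9, rps1601, whose protein reaches the P-site tRNA with its tail, had 10 sites, 7 of them after the 3′ end at 18 to 96 nt. These 7 had occupancies between 0.130 and 0.314, which places them above the median of 0.0500 for downstream sites of rps genes. The genes rps1002 (eS10) and rps2501 (eS25) had 9 sites each, 8 of them after the 3′ end. They differed in depth, with 5 to 10 transitions per downstream site in rps1002 and 2 to 4 in rps2501.

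Among the genes for the body and platform, rps2202 (uS8, which binds the central domain of the rRNA) had 19 sites with 182 transitions in 3478 reads. It was the rps gene with the most sites in the coding sequence, 4, beside 8 in the 3′ UTR, 5 after the 3′ end, 1 in the intron and 1 in the 5′ UTR. The coding site with 22 transitions in 762 reads is the one printed above, and no UGUA lay within 25 nt of it. The sites in the intron and the 5′ UTR, 62 and 18 nt from the transcription start site, had 12 transitions in 248 reads and 8 in 152, and both stood at the maximal occupancy of 1.

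In rps1402 (uS11, on the platform) 6 of the 13 sites lay in the 3′ UTR and 7 after the 3′ end, with no more than 6 transitions at any. In rps602 (eS6, the target of S6 kinases) 10 of the 11 sites lay after the 3′ end, between 13 and 173 nt, with 4 to 19 transitions and occupancies of 0.0521 to 0.352. In rps2602 (eS26, at the mRNA exit) 7 of the 11 sites lay between 4 and 129 nt after the end, and the site at 31 nt had 41 transitions in 334 reads. None of the 3 genes had a site in the coding sequence. In rps802 (eS8), with 10 sites, 6 lay in the 3′ UTR, 3 after the 3′ end and 1 in the coding sequence, none with more than 6 transitions.

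The gene rps401, 1 of 3 for the body protein eS4, had 6 sites with 25 transitions in 373 reads. Its 4 downstream sites at 36, 43, 47 and 188 nt had 5, 4, 5 and 3 transitions and occupancies of 0.147, 0.0976, 0.119 and 0.125. Its 2 sites in the 3′ UTR had 4 transitions each and occupancies of 0.0157 and 0.0305. It thus had the median number of sites of an rps gene, with downstream occupancies above the median.

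The sites of the rps genes lay mainly around the 3′ end. Both 3′ regions held sites in 37 of the genes, and 302 of the 362 sites (83.4%), in 54 of the 55 genes, lay in the 3′ UTR or after the 3′ end. Sites after the 3′ end were found in 49 rps genes (89.1%), where 25.8% of all protein-coding genes had one. Sites in the 3′ UTR were found in 42 rps genes (76.4%, against 26.8% of all protein-coding genes). Sites in the coding sequence were found in 24 rps genes (43.6%), a share close to the 46.8% of all protein-coding genes. The 5′ UTR, which is short in rps genes, held sites in 3 of them (5.45%, against 10.8% of all) and the introns in 15 (27.3%, against 6.28% of all).

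Because crosslinks need a uridine, densities were compared per 1000 uridines of each region. In rps genes these were 36.0 sites after the 3′ end (181 sites, exact Poisson interval 31 to 41.7), 41.7 in the 3′ UTR (121 sites, 34.6 to 49.8) and 4.36 in the coding sequence (33 sites, 3.0 to 6.12). In rpl genes they were 49.8, 39.2 and 3.49, and in the other genes 5.11, 3.18 and 2.07. The 5′ UTRs of rps genes have only 181 uridines in all, and their 3 sites gave 16.6 per 1000 (3.42 to 48.4), against 18.8 in rpl genes and 2.66 in the other genes. The coding sequence of rps genes had a smaller gap to the other genes than the 2 regions at the 3′ end.

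The density after the 3′ end was 8.27 times that in the coding sequence in rps genes (exact interval 5.68 to 12.4), against 14.3 times in rpl genes (10.2 to 20.5) and 2.48 times in the other genes (2.35 to 2.61). The 3′ UTR had 9.57 times the density of the coding sequence in rps genes (6.46 to 14.5), against 11.3 times in rpl genes and 1.54 times in the other genes. The intervals of the 2 ribosomal groups overlap, and both lie above those of the other genes. Among genes with an RNA coverage over 1000 the ratio after the 3′ end was 5.73 in rps genes, 12.2 in rpl genes and 7.58 in the other genes, so the ratio of rps genes was not above that of other genes with abundant RNA. In the class of 100 to 1000 it was 11.3 in rps genes, 7.61 in rpl genes and 2.09 in the other genes, and under 100 it was 6.30, 6.47 and 1.83.

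**Figure D2:**
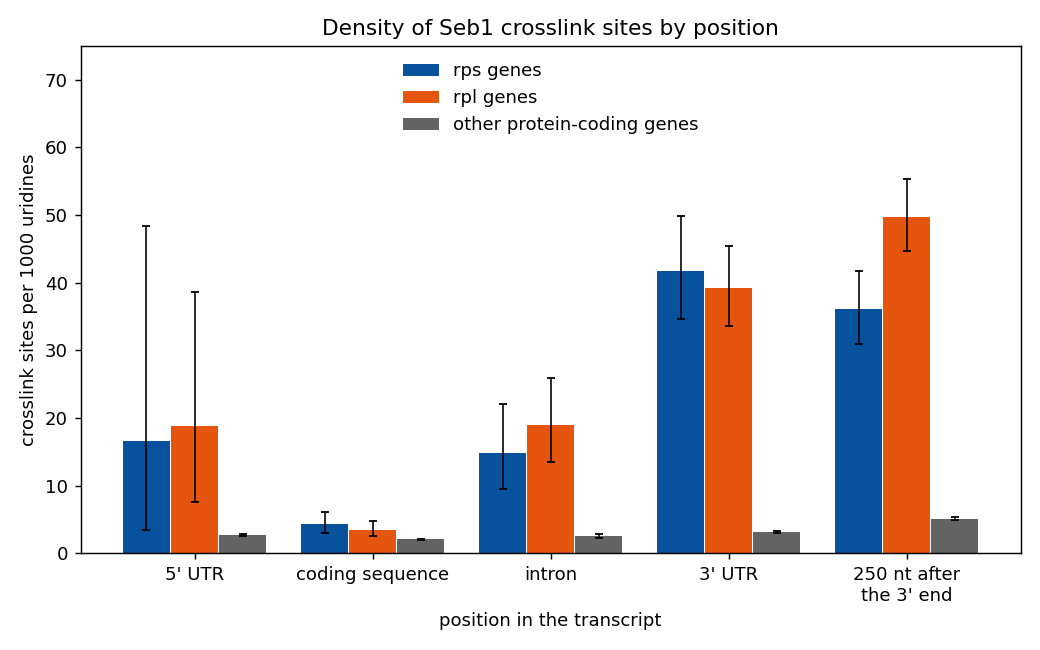
Crosslink sites per 1000 uridines (y axis) in 5 positions of the transcript (x axis) for rps genes, rpl genes and other protein-coding genes, with exact Poisson 95% intervals for counting error. The rps bars reach 41.7 in the 3′ UTR and 36.0 after the 3′ end, against 4.36 in the coding sequence.

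The downstream sites of rps genes were close to the annotated end, with a median distance of 63 nt (quartiles 27 and 113 nt) and 70.7% of them within 100 nt. In rpl genes the median was 68 nt, and in the other genes 92 nt with 53.9% within 100 nt. The first site after the end lay at a median of 23 nt over the 49 rps genes that have one, between 2 nt (rps29 and rps403) and 206 nt (rps1102). In bins of 25 nt the highest count was in the 25 nt directly after the 3′ end, with 42 sites, or 76.4 per 100 rps genes. The same bin was the highest in rpl genes, with 98.7 per 100 genes.

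**Figure D3:**
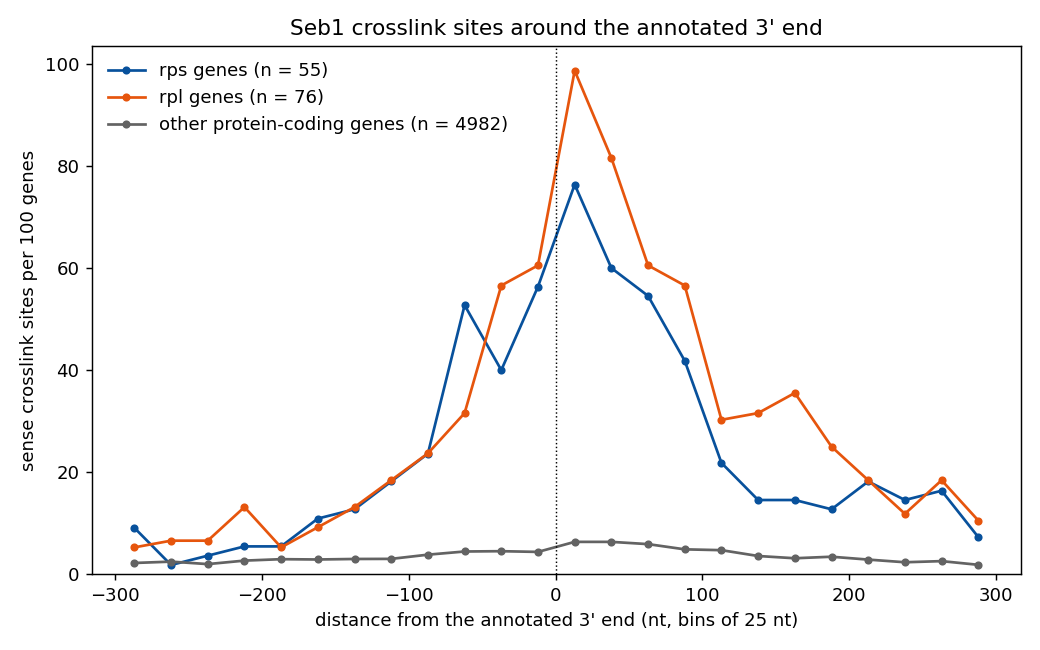
Sense crosslink sites per 100 genes (y axis) in bins of 25 nt around the annotated 3′ end (x axis, nt) for 55 rps genes, 76 rpl genes and 4982 other protein-coding genes. The rps line peaks at 76.4 per 100 genes in the first bin after the end.

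The 6 genes without a downstream site, among them rps101, rps601, rps1001, rps2302 and rps2601, had few sites altogether, with 1 to 4 each. In rps601, which has the longest 3′ UTR of the rps genes (530 nt), 3 of the 4 sites lay inside the 3′ UTR, 297 to 439 nt before its annotated end. The rps2601 gene had its only site in the coding sequence, with 6 transitions in 49 reads.

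Occupancy followed the position in the transcript. The median was 0.0500 after the 3′ end, 0.00536 in the 3′ UTR and 0.000642 in the coding sequence of rps genes, while the median transitions were 5, 4 and 5. The implied RNA-Seq coverage ran the other way, with medians of 102 after the 3′ end, 878 in the 3′ UTR and 8494 in the coding sequence. The order of the occupancies therefore goes with the coverage in the denominator and not with the number of transitions. Over all positions the median rps site had an occupancy of 0.0245 (quartiles 0.00611 and 0.0675), against 0.0354 in rpl genes and 0.0400 in the other genes. Within the classes of coverage described above the order of rps genes and other genes was turned round. Over 1000 the medians were 0.0161 in rps genes and 0.0135 in the other genes. They were 0.0258 and 0.0177 at 100 to 1000, and 0.0594 and 0.0543 under 100. The classes do not match the position of the sites. At 100 to 1000, 46.7% of rps sites but 19.7% of sites in the other genes lay after the 3′ end. By position, without matching coverage, the rps medians were below those of the other genes. The latter were 0.0870 after the 3′ end, 0.0323 in the 3′ UTR and 0.0299 in the coding sequence.

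**Figure D4:**
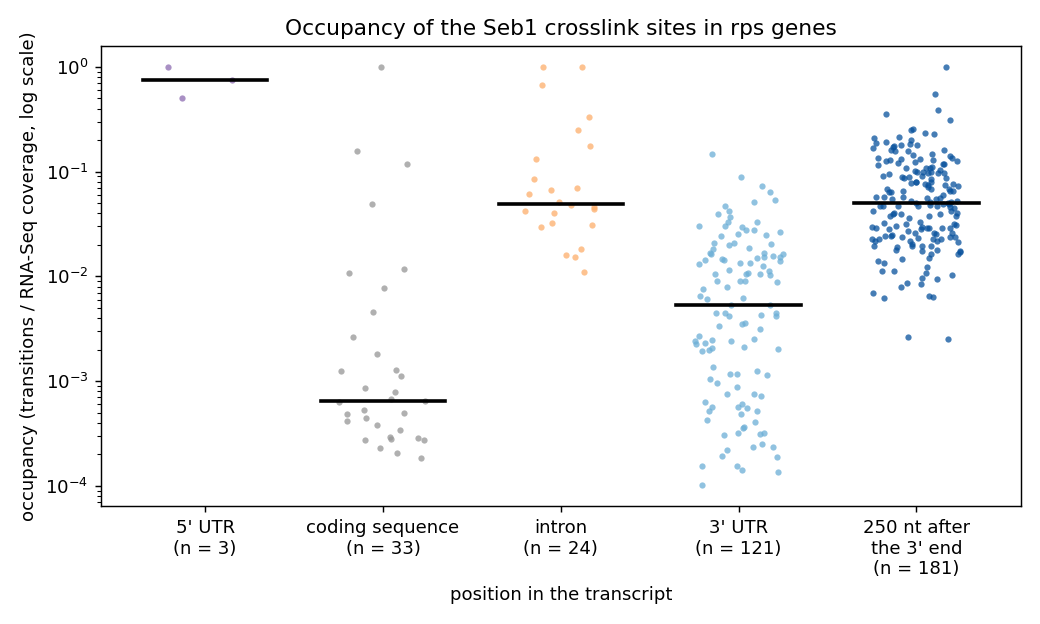
Occupancy of each of the 362 rps sites (y axis, transitions over RNA-Seq coverage, log scale) by position in the transcript (x axis). Points are sites with random horizontal spread and lines are medians, which are 0.0500 after the 3′ end, 0.00536 in the 3′ UTR and 0.000642 in the coding sequence.

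Summed over its sites, the occupancy was highest in rps901, for uS4, a protein at the mRNA entry that affects decoding accuracy. It came to 2.65, followed by 2.43 in rps2202, 1.56 in rps29, 1.43 in rps1601 and 1.28 in rps602. In rps901 the sum rests on 2 sites at the maximum of 1 with only 3 transitions each, 2 nt apart on the junction of the first exon and the intron. A UGUA spans the junction, so that its first U, a crosslinked base, is the last base of the exon and the GUA opens the intron.
rps901 (chrI:476085-476114, minus strand, 23 nt from the transcription start site): aaugccuuccgcaccUGUAaguaaucaagu
Of the 362 rps sites, 5 (1.38%) stood at the maximum, the 2 in rps901, the 2 of rps2202 near the transcription start site and 1 in rps1901.

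The site of rps1901 (eS19), 87 nt after the 3′ end, had 288 transitions in 373 reads. That is 77.2% of the reads, where the median rps site had 8.25% and the neighbouring site 8 nt upstream had 4 transitions in 25 reads. Its sequence is printed above and holds no UGUA within 25 nt. In the whole list 316 of 15824 sites exceed 50%, 64 of them with 100 or more reads, and 3 of these 316 lie in rps windows. What sets this uridine apart was not tested.

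UGUA lay within 25 nt of 235 of the 362 rps sites (64.9%, Wilson interval 59.9 to 69.7%), against 66.5% of rpl sites and 40.5% of sites in the other genes. Over every uridine of the rps windows the share was 26.1%, which gives a ratio of 2.49. Since UGUA is itself more frequent around 3′ ends, the share over uridines was also weighted by the regions of the sites, which gave 39.96% and a ratio of 1.62. The weighted ratio was 1.57 in rpl genes and 1.91 in the other genes, so with this weighting the excess of UGUA at rps sites was not above that in the other genes. The motif lay within 25 nt of 69.6% of sites after the 3′ end (43.1% of uridines), 76.9% in the 3′ UTR (46.8% of uridines), 12 of the 24 sites in introns (32.3% of uridines) and 12.1% in the coding sequence (5.91% of uridines). Of the 242 tetramers ranked, the highest ratio to the uridines was that of GUAG (37.6% against 13.1%, ratio 2.87), followed by UGUA, UAGU (2.13) and UAGA (2.05). Weighted by region, the GUAG ratio was 1.91 in rps genes, 2.06 in rpl genes and 2.27 in the other genes. GUAG, UAGU and UGUA overlap in letters and are not independent of each other. At 73 of the sites (20.2%) the first U of UGUA was the crosslinked base, as in the rps29, rps1501 and rps602 sequences. The share was 20.6% of the sites in rpl genes and 12.2% of those in the other genes. These 3 shares were not set against the share of uridines that start a UGUA. They are thus not corrected for how often the motif occurs in each group.

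The reverse count shows how many of the motifs had a site nearby. Of the 169 UGUA after the 3′ ends of rps genes, 112 (66.3%) had a site within 25 nt, and of 92 in the 3′ UTRs 70 did (76.1%). In coding sequences 4 of 30 did (13.3%). In the other genes the shares were 15.5% after the 3′ end and 5.90% in the coding sequence. These shares are not matched for depth, and the median site had 55 reads in rps genes and 12 in the other genes. The motif was also unevenly spread, with 12.3 UGUA per kb after the 3′ end and 12.4 in the 3′ UTR of rps genes but 1.13 in the coding sequence. The other genes had 7.11 per kb after the 3′ end and 3.25 in the coding sequence. In the class with an RNA coverage over 1000, rps genes had 1.19 per kb in the coding sequence, against 1.72 in the other genes.

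Across rps genes, those with more UGUA in the 250 nt after the 3′ end tended to have more sites there. The 12 genes with 0 or 1 UGUA had a median of 1.5 downstream sites (0 to 4), the 19 with 2 or 3 a median of 2 (0 to 14) and the 24 with 4 or more a median of 4 (0 to 10). The ranges overlap throughout, and over the 55 genes of the library Spearman's rho was 0.44 and Pearson's r 0.38, given as a description of points that share a library and differ in depth. Exceptions were found on both sides. The rps2801 gene had 8 UGUA and 2 sites, and rps29 had 3 UGUA and 14 sites.

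Introns of rps genes held 24 sites in 15 genes, or 14.9 per 1000 uridines (9.53 to 22.1), against 19.0 in rpl genes and 2.53 in the other genes. Within the intron 3 sites lay in the first 10 bases, 2 of them at base 2 (rps901 and rps2502), and 6 in the last 20 bases. The head gene rps1701 (eS17) had 4 intron sites and rps3 (uS3, at the mRNA entry) had 3, which made them the rps genes with the most sites between 10 nt before and 250 nt after the transcription start site. In rps1701 the sites had 3 or 4 transitions in 5 to 21 reads, and in rps3 they had 2 to 6 transitions in 11 to 18 reads, so both rest on few reads. In that window head genes had 25 sites in 16 of 23 genes and body or platform genes 13 sites in 10 of 32. Introns are also more frequent in the head genes, 20 of which have one, against 11 of the body or platform genes. For the window around the transcription start site no share over all protein-coding genes is given. Whether sites there are common or rare in rps genes therefore cannot be said.

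The copies of a family encode the same kind of ribosomal protein, and they were compared with each other. In none of the 23 families with more than 1 gene did the copies have equal numbers of sites. In 16 families the highest count was at least 2 times the lowest, and in 11 at least 3 times. Whether copies differ more than unrelated rps genes was not tested. Of 19 pairs with unequal counts and an RNA coverage for both copies, the copy with more sites had the lower coverage in 10. For eS26 the counts were 11 sites in rps2602 and 1 in rps2601, with 133 and 6 transitions. For uS11 they were 13 in rps1402 and 2 in rps1401. These 2 families of the platform had the widest ratios between copies.

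Among the head families, uS13 had 11 sites in rps1802 and 2 in rps1801, and eS28 had 11 in rps2802 and 2 in rps2801. For uS9 the counts were 10 in rps1601 and 2 in rps1602, and for eS10 they were 9 in rps1002 and 2 in rps1001. In these families the copy with few sites also had few transitions, 4 to 9 in total. Other families were closer, such as eS30, whose gene products are fused to a ubiquitin-like protein in mammals, with 5 sites in rps3001 and 4 in rps3002.

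Of the remaining families with a named gene, the body protein uS8 had 19 sites in rps2202 and 6 in rps2201, all 6 of the second after the 3′ end. For eS6, rps602 had 11 and rps601 had 4, and for eS8, rps802 had 10 and rps801 had 6. The 3 copies of eS4 had 9 (rps403), 6 (rps401) and 4 (rps402). For uS4 the counts were 6 in rps901 and 3 in rps902. The head family uS19 had 15 in rps1501 and 9 in rps1502, eS17 had 7 in rps1701 and 4 in rps1702, eS25 had 9 in rps2501 and 6 in rps2502, and eS19 had 9 in rps1901 and 4 in rps1902.

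**Figure D5:**
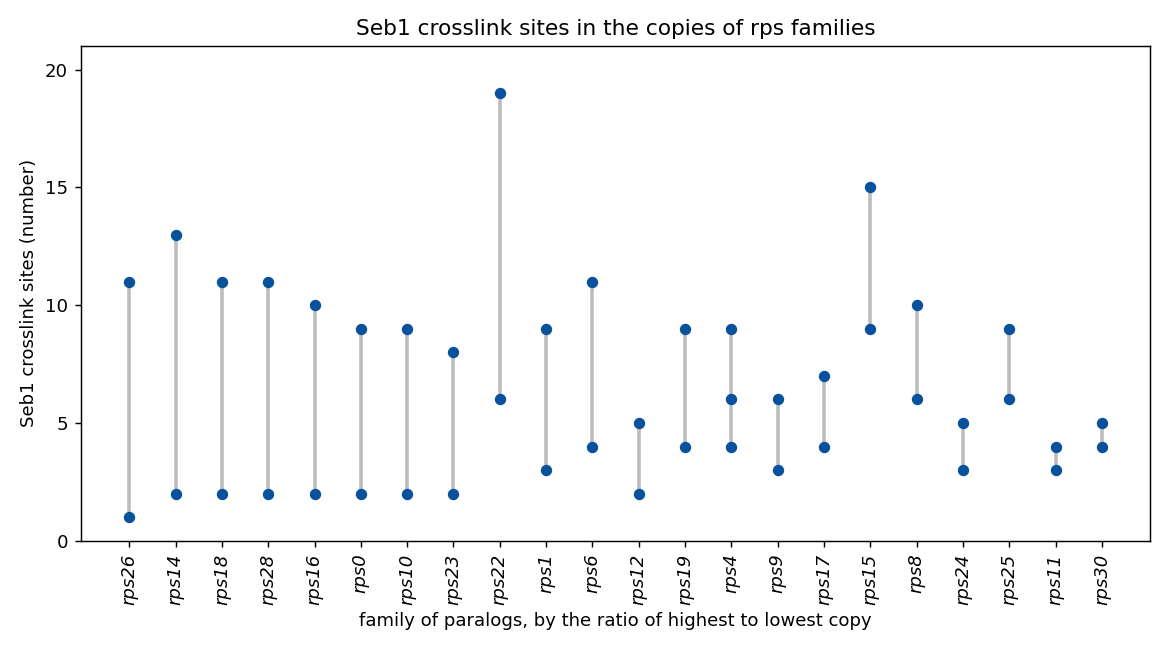
Number of Seb1 crosslink sites (y axis) in each copy of 22 rps families with more than 1 gene (x axis, ordered by the ratio of the highest to the lowest copy). Points are genes and grey lines join the copies of a family, with the widest ratio in eS26 (rps26), 11 and 1 sites.

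The copies were alike in their coding sequences, with 75.4 to 94.4% identical nucleotides over the 25 pairs (median 88.0%), and much less so in the 250 nt after the 3′ end (50 to 59.2%, median 54.8%). No pair had coding sites at the same aligned position. Shared reads between copies were checked through the sequence. None of the 362 sites lay in a 31-nt sequence that occurs more than once in the genome, and 5.81% of the coding uridines of rps genes did. When these uridines were left out, the density after the 3′ end was 7.79 times that in the coding sequence. The search covered exact repeats only, so shared reads between nearly identical stretches were not tested.

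Of the 25 pairs, the copy with more downstream sites had more UGUA after its 3′ end in 12 and fewer in 7, and 6 were tied in one or the other. For example, rps1401 had 7 UGUA and 2 downstream sites, while rps1402 had 4 UGUA and 7 downstream sites.

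Few sites could be claimed by another transcript. Of the 362 rps sites, 4 also lay within an annotated lncRNA of the same strand, 1 each downstream of rps23, rps1502, rps1801 and rps1901, and none within another protein-coding gene, tRNA, snRNA or snoRNA.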

How the data were processed

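The PAR-CLIP library was analysed alone, and the other samples of the series (RNA-Seq and ChIP-Seq) were not analysed here. The authors called crosslink sites and deposited for each a transition count, a read count, a p-value (at most 0.00499, used only to describe the list) and an occupancy, a fraction between 0 and 1. No control library made in the same way was used here. Dividing transitions by occupancy gave a whole number (relative tolerance 1e-06) at each of the 15824 sites, and this quotient was taken as RNA-Seq coverage. At the 908 sites with an occupancy of 1 it is not known. The list starts at 2 transitions and 4 reads, with a median of 13 reads over all sites. The submitters' processing notes name the build ASM294v2 and Bowtie 1.1.1, Bowtie2 2.2.6, TopHat and SAMtools without roles. Coordinates were matched to ASM294v3, where each of the 15789 sites on the 3 nuclear chromosomes reads T on its own strand, and 35 other sites were left out.

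Regions came from the first annotated transcript of each gene. Densities are sites per kb or per 1000 uridines. Motifs were searched on the crosslinked strand within 25 nt of a site, and the background is every uridine of the same windows. Shares have Wilson intervals, densities exact Poisson intervals and ratios exact conditional binomial intervals, all at 95%. Copies were aligned over the coding sequence. Protein sequences were not used here.

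The genes, the gene lists and the comparisons were chosen with earlier results of these data known. The genes named are the 10 with the most sites, the 5 highest each in summed occupancy, in sites after the 3′ end and in sites around the transcription start site (10 nt upstream, 250 nt downstream), any without a site (none), rps401 and the paralogs of all these. A gene that this rule picks is not reported here by name and, with its paralog, is not shown in the figures of single genes, but both are in all counts. Others were named after their values were seen. Sequences are those of the site with the most transitions or the highest occupancy in named genes. Alternatives covered filters on reads and transitions, the window, overlapping genes, repeated sequence, clusters of sites and weighting by occupancy. The calculations were tested on simulated data and used Python 3.11.15, numpy 2.4.6, pandas 2.3.3, scipy 1.17.1, Biopython 1.88 and matplotlib 3.10.9.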

Additional observations from a re-analysis of the deposited data

Results flagged for a closer look

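The comparisons used sites on the strand of the rps gene. On the opposite strand the rps windows held 14 sites in 7 genes, and 4 of these, in 3 genes, lay outside every annotated gene of that strand. They were 2 in the window of rps2402 and 1 each in those of rps1602 and rps1702. No control library was used, so their level over a background is not known, and what transcript they come from was not tested.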

How the results depend on the processing

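Of 44 values recomputed under an alternative, 35 moved by less than their counting error or, for counts of genes and families, by less than 1.5 times, and 9 moved by more. The density of 6.81 sites per kb in rps genes became 6.08 with at least 3 transitions, 5.14 with sites within 10 nt counted once, 4.60 with no nt and 5.94 with 500 nt after the 3′ end. Weighted by occupancy it was 0.453 of summed occupancy per kb. The median occupancy was 0.00651 with no nt after the 3′ end. The ratio of the density after the 3′ end to that in the coding sequence was 5.19 with 500 nt and 15.98 weighted by occupancy, and above 1 throughout. The share of sites with UGUA was 59.0% with clusters counted once. The causes of these shifts were not tested beyond what each setting leaves out. Between 50 and 55 rps genes kept at least 1 site, and 14 to 16 families differed at least 2-fold. The alternative restricted to uridines in single-copy sequence was chosen after seeing the data. With no nt after the 3′ end its ratio has no value, and weighting by occupancy was applied to densities only.

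No paired analysis was possible because the report rests on 1 library and no test was made. At a median of 55 reads per rps site, single sites with 2 or 3 transitions are uncertain, and groups of sites are more precise than any 1 of them. The occupancy depends on RNA-Seq coverage from an untagged strain, and its values near the maximum have the smallest denominators. The annotated 3′ ends come from RefSeq and not from these cells.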
